A study of Mus musculus with 14 samples.

Results

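The genes described here encode proteins of the tight junction: the claudins Cldn1, Cldn3, Cldn4, Cldn6, Cldn7 and Cldn23, the MARVEL-domain protein occludin (Ocln), the junctional adhesion molecule JAM-A (F11r) and the scaffold protein ZO-1 (Tjp1). They were chosen by name, and all 9 were found among the 26252 genes of the deposited count table. The libraries came from dorsal skin epithelium of wild-type embryos of the strain C57BL/6JOlaHsd at E14.5, with no treatment. MAdCAM-1 positive sorted cells, called placode-enriched, were compared with MAdCAM-1 negative cells, called interfollicular epithelium (IFE). The 14 libraries formed 7 pairs, and each library was made from the pooled epithelium of 3 to 4 embryos of a litter, so a value is an average over embryos and over all cell layers in the gate.

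Tight junctions seal the space between epithelial cells. Claudins span the membrane and form the strands of the junction, and the mixture of claudins sets which ions and molecules can pass. Occludin and JAM-A lie in the same contacts, and ZO proteins tie the strands to the actin cytoskeleton. In mature epidermis the sealing junctions lie in the granular layer, and loss of Cldn1 in mice causes lethal loss of water through the skin. In the embryo the surface is first covered by the periderm, and hair placodes form within the layer beneath it.

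Library totals lay between 23.8 and 49.5 M counts, where M is 1000000. The label of an epithelial sort was checked by markers. The summed level of 6 basal keratinocyte markers was between 4248 and 5846 CPM (counts per 1000000 of the scaled library size) in placode-enriched libraries. In IFE libraries it was between 5266 and 6891 CPM, and the placode-enriched sum was the lower one in 7 of 7 pairs. Krt5, Krt15 and Itgb4 were called lower, Krt14 and Col17a1 higher, and Itga6 was not called. The sort gene Madcam1 averaged 47.9 ± 12.1 CPM over the placode-enriched libraries and 0.561 ± 0.367 CPM over those of IFE (SD, n = 7). Markers of placodes summed to 804 to 1262 CPM in placode-enriched libraries and to 129 to 193 CPM in IFE libraries. Markers of suprabasal epidermis summed to 196 to 452 CPM in placode-enriched and 2794 to 4418 CPM in IFE libraries. All 8 of 8 were called lower, against 15.6% of all genes tested. Of these, Ivl (0 to 8 against 26 to 52 reads) passed the filter on low counts through its IFE libraries. Some difference was thus built into its call. The 9 periderm markers summed to 183 to 248 CPM against 421 to 597 CPM, and the 9 melanoblast markers to 8.31 to 14.6 CPM against 124 to 222 CPM. Most of the periderm sum was Sfn (179 against 397 CPM). Of the 8 periderm markers tested, 6 were lower and 2 higher (15.6% and 15.5% of all genes tested). The 2 were Krt8 (2.34 against 0.924 CPM) and Krt18 (8.43 against 2.41 CPM). Other lists were higher in the placode-enriched cells. The 7 endothelial markers summed to 1.33 to 3.86 against 0.214 to 1.70 CPM, led by Pecam1 (1.83 against 0.493 CPM), while Cdh5, Kdr, Cldn5 and Emcn had means under 0.1 CPM over all libraries. Immune markers summed to 33.3 to 49.4 against 1.63 to 7.30 CPM, nearly all of it Cd74, with Ptprc and Cd52 under 0.1 CPM. Fibroblast markers summed to 1102 to 1893 against 915 to 1253 CPM, nearly all of it Postn (1042 against 745 CPM) and Dcn (498 against 258 CPM). Postn, Dcn and Col1a2 were called higher and Col1a1 lower. Pdgfra (0.446 against 0.413 CPM) and Col3a1 were not called, and Twist2, with a mean under 0.1 CPM over all libraries, was not tested. The fractions thus differed in markers of several cell layers and types together, and the part of these in each result below was not tested. In such bulk libraries, fewer cells of a type and less RNA per cell cannot be told apart.

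Tight junction transcripts did not move together. Of the 9 genes, Cldn23, Ocln, Cldn1, Cldn3 and Cldn4 were lower in the placode-enriched cells, Cldn7, Cldn6 and F11r were higher, and Tjp1 did not pass the test. The largest fall, about 8-fold, was in Cldn23, and Ocln and Cldn1 fell by 4.10-fold and 3.25-fold. The rises were smaller, between 1.42-fold and 1.85-fold. Of the 15382 genes tested in the same fit, 31.1% were called, 15.6% as lower and 15.5% as higher (edgeR quasi-likelihood fit, blocked by pair, adjusted p under 0.05). The median log2 fold change of the 9 genes was -0.47, against -0.02 over all genes tested. All 9 passed the filter on low counts. Cldn23 passed through its IFE libraries, so that some difference was built into its passing.

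**Figure D1:**
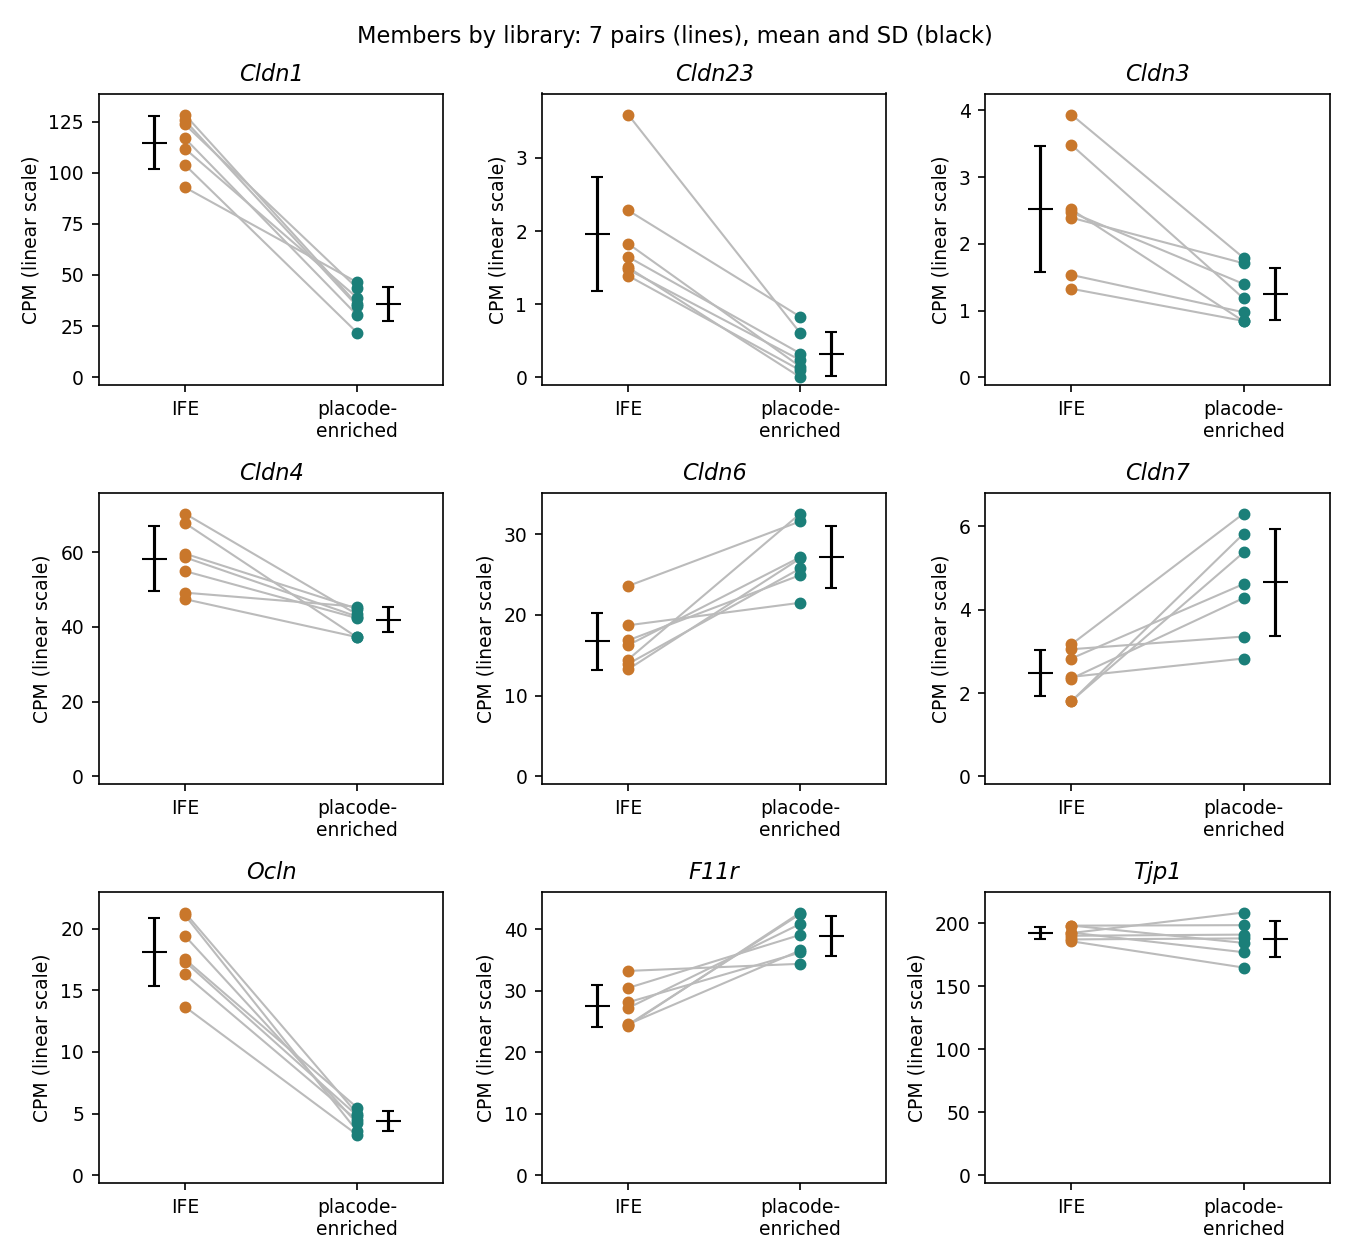
CPM of the 9 genes in each library, with IFE on the left and placode-enriched on the right of each panel, on linear axes that differ between panels. Grey lines join the libraries of a pair and black bars give the mean and SD of 7. Cldn1, Cldn4, Cldn23 and Ocln are lower in every placode-enriched library than in any IFE library, F11r is higher in every one, and the Tjp1 points overlap.

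Cldn1, the claudin whose loss opens the epidermal barrier (ENSMUSG00000022512; GRCm38 chromosome 16, 26356642 to 26371841, minus strand), had from 21.8 to 46.4 CPM in the placode-enriched libraries, with a median of 35.7. In IFE libraries it had from 92.9 to 128 CPM, with a median of 117. Every placode-enriched library was below every IFE library. The fitted log2 fold change, given here and below with its approximate SE, was -1.70 ± 0.12 (edgeR adjusted p = 2.36e-07). The difference within single pairs ran from -2.25 to -0.999. The pair with the smallest difference held both the highest placode-enriched and the lowest IFE value. The summed suprabasal markers in that pair were 249.7 CPM in the placode-enriched library, within the range of the other pairs. In its IFE library they were 4398 CPM, close to the highest of the 7 (4418 CPM). That IFE library also had the highest summed periderm markers of the 7 (597 CPM).

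Ocln, a tetraspan membrane protein of the junction strand (ENSMUSG00000021638; chromosome 13, 100496507 to 100552718, minus strand), was lower as well. Its level lay between 3.28 and 5.49 CPM in placode-enriched libraries (median 4.46) and between 13.7 and 21.3 CPM in IFE libraries (median 17.5), with no overlap. The log2 fold change was -2.04 ± 0.13 (edgeR adjusted p = 6.66e-08). Pairs ranged from -2.54 to -1.66.

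Cldn23, a claudin with restricted expression in differentiated epithelia (ENSMUSG00000055976; chromosome 8, 35824712 to 35826559, minus strand), was close to the limit of detection in placode-enriched cells. It had 0 to 21 reads per library there, or 0 to 0.827 CPM (median 0.234), and 44 to 84 reads in IFE libraries, or 1.39 to 3.59 CPM (median 1.65). The placode-enriched library of the pair coded 27-7-4 had 0 reads, which allows a level of up to 0.0886 CPM (3 counts, counting error only). The groups did not overlap, and the log2 fold change was -2.98 ± 0.54 (edgeR adjusted p = 0.000802). With so few reads the size of this change is the least precise of the 9.

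Cldn3 (ENSMUSG00000070473; chromosome 5, 134986214 to 134987472, plus strand) and Cldn4 (ENSMUSG00000047501; chromosome 5, 134945119 to 134946934, minus strand), neighbouring sealing claudins with 39.3 kb between them, were both lower in 7 of 7 pairs. Cldn4 lay between 37.2 and 45.4 CPM in placode-enriched libraries (median 42.8) and between 47.4 and 70.3 CPM in IFE libraries (median 58.6). The groups stood apart by a narrow margin, and the log2 fold change was -0.47 ± 0.09 (edgeR adjusted p = 0.00145). Cldn3 was far scarcer, at 0.839 to 1.79 CPM (median 1.18) against 1.33 to 3.94 CPM (median 2.47). These ranges overlapped, and the log2 fold change was -0.99 ± 0.26 (edgeR adjusted p = 0.0111). Cldn3 fell further than Cldn4 in 7 of 7 pairs, by 0.48 ± 0.38 on the log2 scale (SD, n = 7; exact two-sided sign-flip p = 0.0156, the smallest that 7 pairs allow; adjusted p = 0.0234 over 3 comparisons). An exon of Cldn3 overlaps Wbscr25 on the opposite strand, and the strand setting of the counts is not given in the sources used here. Wbscr25 itself held 0 to 23 counts per library.

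Cldn6 and Cldn7 moved the other way. Cldn6, a claudin typical of embryonic epithelia (ENSMUSG00000023906; chromosome 17, 23679249 to 23682446, plus strand), lay between 21.5 and 32.6 CPM in placode-enriched libraries (median 27.01) and between 13.2 and 23.6 CPM in IFE libraries (median 16.2). The ranges overlapped, but each pair showed a higher placode-enriched value. The log2 fold change was 0.71 ± 0.12 (edgeR adjusted p = 0.00044). Its neighbour Cldn9, 137 bases away on the opposite strand, had at most 0.254 CPM in any library and was not tested, so the planned comparison of these neighbours could not be made. Cldn7, a claudin that is also found along lateral membranes (ENSMUSG00000018569; chromosome 11, 69964779 to 69967885, plus strand), lay between 2.83 and 6.31 CPM (median 4.62) against 1.80 and 3.17 CPM (median 2.39). It was higher in 7 of 7 pairs with overlapping ranges (log2 0.88 ± 0.23; edgeR adjusted p = 0.0104). The pair differences were uneven, from 0.14 to 1.66. The change in Cldn1 lay below that in Cldn7 by 2.57 ± 0.84 on the log2 scale in 7 of 7 pairs (SD; exact sign-flip p = 0.0156, adjusted p = 0.0234). As Cldn1 was lower and Cldn7 higher in every pair, this p could only take its smallest value. It adds nothing to the separate results of Cldn1 and Cldn7.

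F11r, the gene of the immunoglobulin-like adhesion molecule JAM-A (ENSMUSG00000038235; chromosome 1, 171437535 to 171464603, plus strand), was higher in the placode-enriched libraries, at 34.4 to 42.8 CPM (median 39.1) against 24.4 to 33.2 CPM (median 27.2). The ranges did not overlap, and the log2 fold change was 0.51 ± 0.10 (edgeR adjusted p = 0.00151). Tjp1, the scaffold on which the other proteins assemble (ENSMUSG00000030516; chromosome 7, 65296165 to 65527781, minus strand), lay between 165 and 209 CPM in placode-enriched and between 186 and 198 CPM in IFE libraries. Its log2 fold change was -0.04 ± 0.06 (edgeR adjusted p = 0.709), with an approximate 95% interval of -0.16 to 0.08. Over the 9 genes, ranges did not overlap for 5, against 14.8% of all genes tested. Of these 4 were lower (7.29% of all genes) and 1 higher (7.46%). Cldn23, Ocln and Cldn1 were the 3 called genes that were at least 2-fold lower (4.9% of all genes), and 5 were lower in all 7 pairs (13.2%). Cldn23, which passed the filter through its IFE libraries, is in each of these counts of lower genes. Some difference was built into its passing, so its part in these counts is no separate result.

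**Figure D2:**
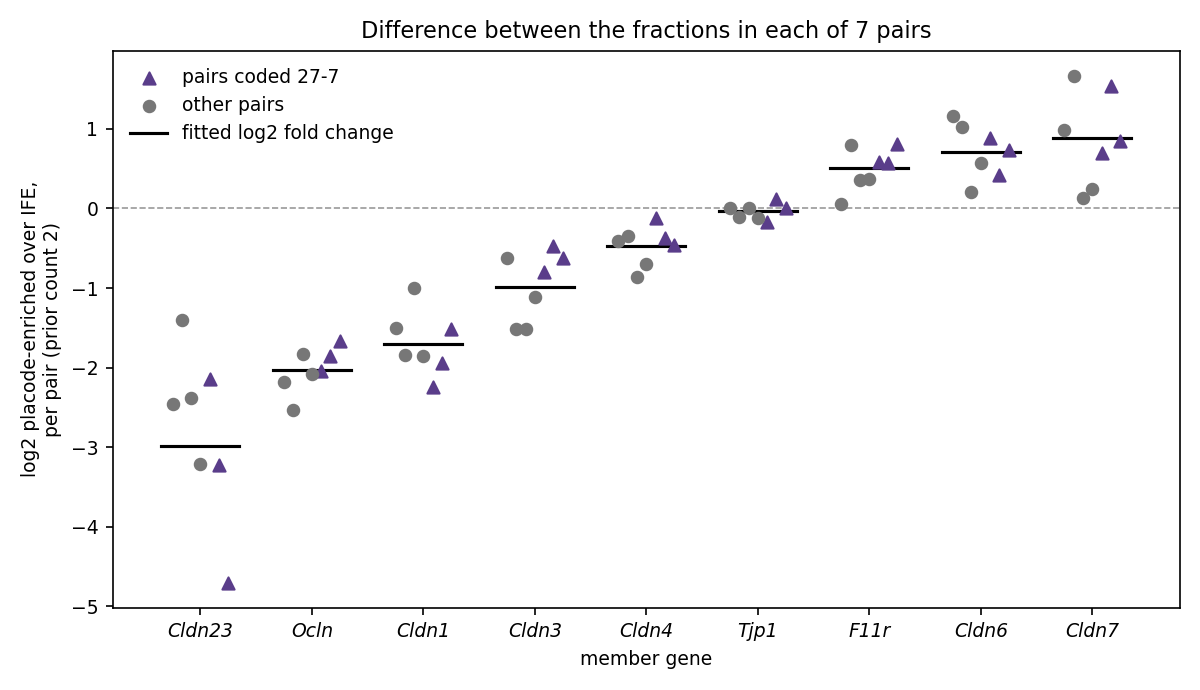
Log2 ratio of placode-enriched over IFE in each of the 7 pairs, with the fitted log2 fold change as a black line for each gene. Triangles are the 3 pairs whose codes start with 27-7 and circles the other 4. All points lie below 0 for Cldn23, Ocln, Cldn1, Cldn3 and Cldn4 and above 0 for F11r, Cldn6 and Cldn7.

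The title codes of 3 pairs start with 27-7, and what the code marks is not given. Taken alone, those 3 pairs gave log2 fold changes of -0.65 for Cldn3 (edgeR adjusted p = 0.344), -0.31 for Cldn4 (0.145) and 1.05 for Cldn7 (0.0699), which did not pass. The 4 other pairs alone gave 0.76 for Cldn7 (edgeR adjusted p = 0.142) and 0.39 for F11r (0.0698). Cldn1, Cldn6, Cldn23 and Ocln passed in both sets. The difference between the sets was itself tested. It had unadjusted p between 0.152 (Cldn1 and Cldn4) and 0.828 (Cldn6), and none of the 15382 genes passed (edgeR interaction test; 528 genes, or 3.43%, at an unadjusted p under 0.05).

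Levels of different genes were compared as CPM per kilobase of exon. In placode-enriched libraries Tjp1 (24.003 ± 1.82 CPM per kb) and Cldn4 (23.1 ± 1.85) led with overlapping ranges, followed by Cldn6 (15.8 ± 2.22) and F11r (14.6 ± 1.23), which overlapped too. Cldn1 (7.43 ± 1.71) and Cldn7 (2.39 ± 0.656) each stood apart from their neighbours in this order. Ocln (1.04 ± 0.186) and Cldn3 (0.991 ± 0.314) overlapped, and Cldn23 (0.172 ± 0.161) was lowest. In IFE libraries Cldn4 led at 32.1 ± 4.77 CPM per kb, above Tjp1 (24.6 ± 0.624) in every library. Cldn1 (23.7 ± 2.66) overlapped with Tjp1, and F11r (10.3 ± 1.28) with Cldn6 (9.71 ± 2.07). Ocln (4.29 ± 0.647) stood apart from both of its neighbours, whereas the ranges of Cldn3 (2.00 ± 0.750), Cldn7 (1.27 ± 0.286) and Cldn23 (1.06 ± 0.423) overlapped from step to step. Cldn1 thus followed 2 of the genes in the IFE order and 4 in the placode-enriched order.

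Both the total of claudin transcripts and their make-up differed between the fractions. The summed level of the 10 claudins tested was 60.4 ± 3.78 CPM per kb in placode-enriched and 80.5 ± 5.69 CPM per kb in IFE libraries. Within pairs, the placode-enriched sum was 0.644 to 0.814 of the IFE sum. Cldn1 made up 12.3% ± 2.83 of it in placode-enriched and 29.5% ± 3.08 in IFE libraries, and Cldn6 made up 26.1% ± 2.33 and 12.1% ± 2.35 (SD, n = 7). The ranges of neither claudin overlapped between the fractions. Cldn4 held 38.2% ± 3.01 and 39.8% ± 4.34, so that the most abundant claudin per kilobase was the same in both. The ratio of Cldn6 to Cldn1 per kilobase was 1.30 to 3.32 in placode-enriched libraries (median 2.10) and 0.290 to 0.568 in IFE libraries (median 0.377). Per kilobase, Cldn6 exceeded Cldn1 in every placode-enriched library and in no IFE library. That order depended on the length scaling. Without it, Cldn1 held a larger mean share than Cldn6 in placode-enriched libraries as well (24.1% against 18.4%). These shares describe transcripts, and no test was made on them.

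**Figure D3:**
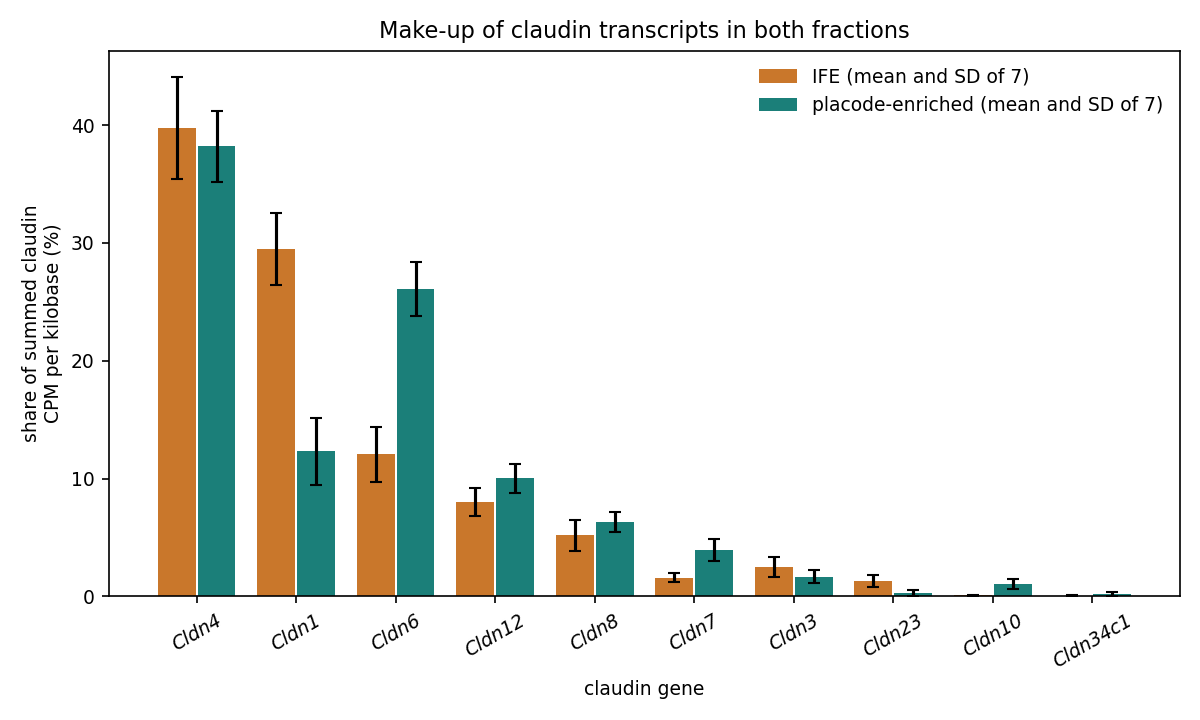
Share of each claudin in the summed CPM per kilobase of the 10 claudins tested, in percent, as mean and SD of 7 libraries of each fraction. The Cldn1 bar falls from 29.5% in IFE to 12.3% in placode-enriched libraries, the Cldn6 bar rises from 12.1% to 26.1%, and the Cldn4 bars differ by less than their SD.

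Of the remaining claudins, 10 were in the table and 4 passed the filter. Cldn10, a channel-forming claudin (2591 bp of exon on chromosome 14, 118787908 to 118875489), was the only one of these 4 to pass the test. It had 15 to 109 reads in placode-enriched and 1 to 14 reads in IFE libraries, or 0.474 to 2.57 CPM against 0.0335 to 0.356 CPM. Its groups did not overlap, and the log2 fold change was 3.35 ± 0.52 (edgeR adjusted p = 0.00022). It passed the filter on low counts through its placode-enriched libraries, so some difference was built in, as for Cldn23. Cldn12 stood at 25.6 ± 2.90 against 27.03 ± 2.80 CPM (log2 -0.08, approximate 95% interval -0.27 to 0.10) and Cldn8 at 8.91 ± 0.980 against 9.77 ± 2.43 CPM (log2 -0.10, interval -0.44 to 0.24). Cldn34c1 had a log2 value of 1.69 ± 1.01 (edgeR adjusted p = 0.233), and DESeq2 called it (adjusted p = 0.049). The claudin domain gene Cldnd1 stood at -0.24 ± 0.11 (edgeR adjusted p = 0.131). Cldn5, Cldn9, Cldn15, Cldn17, Cldn20 and Cldn34b2 had too few reads to be tested, and no placode-enriched library had a read of Cldn17 or Cldn34b2.

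The other tight junction genes were taken from a list of junction and polarity genes. Among the 37 that were tested, 9 rose, 10 fell and 18 missed the threshold, and the median log2 fold change was -0.00. Over all genes tested, 15.5% were called higher and 15.6% lower. Opposite changes were found among related proteins. Cingulin (Cgn), a plaque protein that binds ZO-1 and actomyosin, had 13.4 ± 3.08 CPM in the placode-enriched cells and 43.1 ± 5.84 CPM in IFE (log2 -1.71 ± 0.11; edgeR adjusted p = 6.34e-08). Its paralogue paracingulin (Cgnl1) had 50.4 ± 8.17 CPM, against 11.5 ± 1.88 CPM in IFE (log2 2.14 ± 0.13; edgeR adjusted p = 4.33e-08). The ratio of Cgnl1 to Cgn per kilobase was therefore 2.11 to 3.82 in placode-enriched and 0.161 to 0.259 in IFE libraries.

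Among 14 scaffold and plaque genes, 5 were higher and 4 lower (15.5% and 15.6% of all genes tested). After Cgnl1, the largest rises were in Arhgef2 (0.94 ± 0.07), which encodes the junction-bound exchange factor GEF-H1, and in Magi3 (0.61 ± 0.08), a multi-PDZ scaffold. After Cgn, the largest falls were in Ybx3 (-0.63 ± 0.08), whose product ZONAB binds ZO-1, and in Tjp3 (-0.50 ± 0.17), which encodes ZO-3. The fourth gene called lower was Afdn (-0.33 ± 0.07). Afdn passed neither in the 27-7 pairs alone (edgeR adjusted p = 0.0751) nor in the 4 other pairs alone (0.0644). The Tjp3 call was lost under several alternatives, among them upper-quartile scaling (edgeR adjusted p = 0.0544) and leaving out replicate 3, 4, 6 or 7 (edgeR adjusted p = 0.078, 0.115, 0.0806 and 0.133), and its exons overlap Apba3 on the opposite strand. Of 11 polarity genes, 5 were lower and 1 higher (15.6% and 15.5% of all genes tested). Prkci (-0.60 ± 0.08), an atypical protein kinase C of the Par complex, and its partners Pard6b (-0.47 ± 0.13) and Pard3 (-0.40 ± 0.06) fell. Rab13 (0.66 ± 0.16), a small GTPase of junction traffic, rose. Prkcz, also an atypical protein kinase C (0.11 ± 0.15, edgeR adjusted p = 0.637), and Pard6a (0.09 ± 0.22, 0.813) did not pass. Both were named after their values were seen. Within the 27-7 pairs and the other pairs taken alone, neither Rab13 (edgeR adjusted p = 0.103 and 0.0954) nor Pard6b (0.223 and 0.0556) passed.

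At contacts between 3 cells, Marveld2, which encodes tricellulin, had 5.85 ± 1.09 CPM, against 9.98 ± 2.25 CPM in IFE (log2 -0.76 ± 0.18; edgeR adjusted p = 0.00562). Ildr2, an angulin family gene, rose from 0.342 ± 0.226 to 3.02 ± 0.978 CPM (log2 3.23 ± 0.44; edgeR adjusted p = 8.17e-05), and it too passed the filter through the placode-enriched libraries. The angulin gene Lsr, named after its values were seen, was more abundant, at 97.1 ± 14.8 against 87.7 ± 11.2 CPM, and did not pass (log2 0.14 ± 0.10, edgeR adjusted p = 0.341). Without replicate 3 the Lsr value was 0.24 (edgeR adjusted p = 0.0262). Cxadr, the coxsackievirus and adenovirus receptor and a further junction adhesion molecule, rose by 0.51 ± 0.11 on the log2 scale, as F11r did. The Marveld2 call was lost in the 4 other pairs alone (edgeR adjusted p = 0.172) and that of Cxadr in the 27-7 pairs alone (0.122). Exons of Ildr2, Lsr and Cxadr overlap genes on the opposite strand, as do those of Afdn, Arhgef2, Cd9, Prss8, Zeb1, Zeb2, Grhl2, Ovol1 and Ovol2, so their counts are uncertain to that extent.

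**Figure D4:**
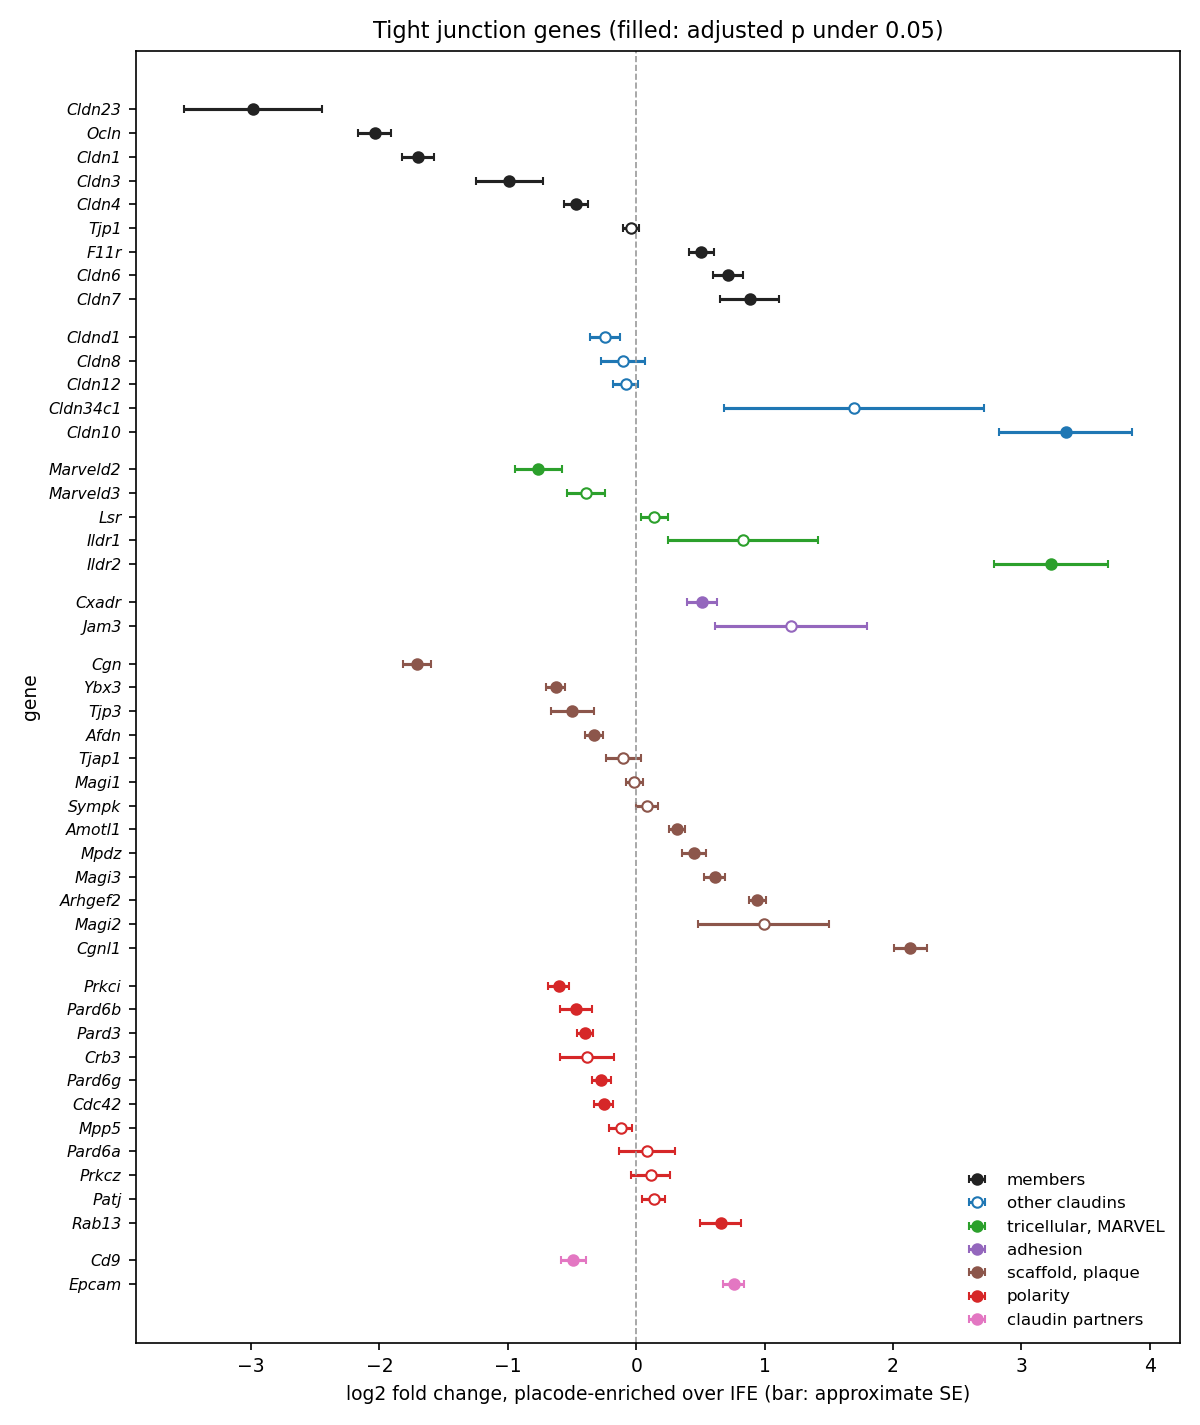
Log2 fold change, placode-enriched over IFE, with approximate SE, for the 9 genes, other tight junction genes tested and claudin partners, grouped by role. Filled points passed at an adjusted p under 0.05. Cgn at -1.71 and Cgnl1 at 2.14 lie on opposite sides of 0, Epcam lies at 0.76, and Tjp1 lies close to 0.

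Epcam encodes a membrane protein that binds and stabilises claudins, Cldn1 and Cldn7 among them. Epcam averaged 241 ± 30.7 CPM in the placode-enriched cells and 142 ± 16.4 CPM in IFE (log2 0.76 ± 0.08; edgeR adjusted p = 8.91e-06). The tetraspanin gene Cd9 was lower, by a log2 value of -0.49 ± 0.10. Among 4 genes for membrane proteases and their inhibitors that act on the epidermal junction, Spint1 was lower (-0.26 ± 0.08; edgeR adjusted p = 0.0328). That call was lost under upper-quartile scaling, library-size scaling and no filter, and without replicate 2, 3, 4, 6 or 7 (edgeR adjusted p = 0.0513 to 0.139). Prss8, St14 and Spint2 did not pass.

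Of 10 tested transcription factors known to act on junction genes, 6 were lower and 2 higher (15.6% and 15.5% of all genes tested). The largest falls were in Zeb2 (-5.63 ± 0.31) and Zeb1 (-3.96 ± 0.90), repressors of junction genes, and in Grhl1 (-2.48 ± 0.07), a grainyhead factor of epidermal differentiation. Both Zeb genes passed the filter through their IFE libraries. Zeb1 had 0 to 17 reads in placode-enriched and 17 to 48 in IFE libraries, so its size is imprecise, and its call was lost in the 27-7 pairs alone (-3.22; edgeR adjusted p = 0.148). Melanoblast markers were lower in 8 of 8 tested, against 15.6% of all genes tested. Among them Dct (0 to 20 against 366 to 1159 reads) and Mlana (0 to 13 against 61 to 175 reads) passed the filter through their IFE libraries. Some difference was therefore built into their calls. Of 4 Schwann cell and neuron markers tested, 2 were lower. The part of these cell types in the Zeb2 and Zeb1 changes was not tested. Grhl3 (-1.39 ± 0.08), Klf4 (-1.96 ± 0.11) and Ovol1 (-2.19 ± 0.11), which were named after their values were seen, were lower as well. Trp63, the master factor of stratified epithelium, rose by 0.48 ± 0.06 and Ovol2 by 0.50 ± 0.13, which was not called in the 4 other pairs alone (edgeR adjusted p = 0.16). Grhl2, a regulator of claudin genes in simple epithelia and also named after its values were seen, did not pass (0.15 ± 0.07; edgeR adjusted p = 0.107), but did without replicate 2 (0.21; adjusted p = 0.0442).

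The sequences upstream of 4 of these genes are shown because 3 of them hold letters that such factors are known to recognise and Cldn1, which fell with Ocln, holds none of those searched. They are the bases just before the gene start, from RefSeq on GRCm38.p6, 5′ to 3′ on the strand of the gene, with motif matches in capitals: chr16:26371842-26372089 (minus strand), chr13:100552719-100552968 (minus strand), chr5:134946935-134947184 (minus strand) and chr1:171437311-171437534 (plus strand).
Cldn1: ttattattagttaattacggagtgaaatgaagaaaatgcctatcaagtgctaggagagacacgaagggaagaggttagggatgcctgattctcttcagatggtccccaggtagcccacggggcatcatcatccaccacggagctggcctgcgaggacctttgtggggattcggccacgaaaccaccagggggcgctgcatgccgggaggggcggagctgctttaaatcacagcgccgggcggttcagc
Ocln: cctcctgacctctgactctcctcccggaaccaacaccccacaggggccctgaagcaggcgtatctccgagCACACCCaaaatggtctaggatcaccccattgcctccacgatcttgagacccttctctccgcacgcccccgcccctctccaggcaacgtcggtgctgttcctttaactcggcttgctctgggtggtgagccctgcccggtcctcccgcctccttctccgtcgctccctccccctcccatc
Cldn4: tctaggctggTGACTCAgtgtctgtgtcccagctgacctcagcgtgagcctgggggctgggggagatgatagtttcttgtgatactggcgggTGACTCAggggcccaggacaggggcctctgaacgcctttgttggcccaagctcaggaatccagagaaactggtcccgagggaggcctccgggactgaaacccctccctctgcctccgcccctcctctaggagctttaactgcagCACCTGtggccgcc
F11r: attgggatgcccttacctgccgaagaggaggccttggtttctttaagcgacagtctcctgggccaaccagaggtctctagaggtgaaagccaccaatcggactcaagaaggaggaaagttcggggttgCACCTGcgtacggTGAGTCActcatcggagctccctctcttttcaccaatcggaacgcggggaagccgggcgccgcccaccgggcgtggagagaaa
Cldn4 (lower) holds the AP-1 motif TGANTCA in 2 places and an E-box CAGGTG, read on the other strand as CACCTG. F11r (higher) holds an AP-1 motif and the same E-box, and Ocln (lower) the KLF motif CACACCC. The grainyhead motif AACNGGTT and the TATA box TATAAA were also searched on both strands and were found in none of the 7 windows available, Cldn3, Cldn6 and Cldn7 included, which held no match to any of the 5 motifs. No motif overlapped another. Of 32851 promoter windows of 250 bases, 6.75% held TGANTCA, 17.2% CAGGTG, 6.93% CACACCC, 1.79% AACNGGTT and 12.4% TATAAA, and the windows of Cldn1, Cldn6 and F11r are shorter than that. The matches fell in genes that were lower and in a gene that was higher, and they are a description of letters only.

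The genes most alike to each member were those with the smallest root mean square difference of log2 CPM, centred on the mean of each gene, over the 14 libraries. For Cldn1 these were Sgpp1 (0.19), a phosphatase of sphingosine 1-phosphate, Lpcat2 (0.21) and Igf1 (0.23). For Ocln they were Cd109 (0.16), Nebl (0.23) and Sh2d4a (0.26), and for Cldn23 Gldc (0.66), Serpina3j (0.67) and Rab27b (0.71). The scarce Cldn23 had no close match. For Cldn4 they were Xpnpep1 (0.12), Lrig3 (0.12) and Ifrd2 (0.13), and for Cldn3 Atp6v0a1, Atp2b4 and Llgl2 (0.37 to 0.38). Among the genes that rose, Cldn6 was closest to Fads1, Zfp775 and Lipg (0.18 to 0.19), Cldn7 to Dyrk3, Itm2c and Rnd3 (0.26 to 0.27) and F11r to Nmral1, Arl2bp and Fam213a (0.10 to 0.12). Tjp1 was closest to Tor1aip1, Phf10 and Gnpat (0.06 to 0.07). No member was among the 3 genes most alike to another member.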

How the data were processed

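The authors deposited raw read counts per Ensembl gene for the 14 libraries, whole numbers that were not normalized as far as the values show. Per the labels' protocols, cells were sorted into TRI Reagent, total RNA was extracted with DNase treatment, and libraries were made with the Ovation SoLo kit. Amplified reads are not independent molecules, so the floor given covers counting error only. The tools used, per the submitters' processing notes and with no order given, were HTSeq, STAR (given with version 1.5), Trimmomatic, bcl2fastq (2.17.1.14), MultiQC and FastQC. The builds named there are mm10 and GRCm38. Whether counting used strand, how duplicates were handled and which annotation was used is not given in the sources used here. Symbols, coordinates and exon lengths are from GENCODE M21 (GRCm38), which matched 25949 of 26252 identifiers, and the others held 0.436% of counts.

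Genes were filtered with filterByExpr (15382 left), scaled by TMM and tested with edgeR 4.0.16 in R 4.3.3, by robust quasi-likelihood with the pair as a block, with Benjamini-Hochberg adjustment at 0.05. The pairing comes from the design text and the title codes, and libraries of a pair correlated in their deviations by 0.0548 on average (-0.132 to 0.195). P-values measure the spread between these litter pools. CPM use TMM-scaled sizes, standard errors are approximate (coefficient over the root of F), and values per pair use a prior count of 2. Alternatives included limma 3.58.1, DESeq2 1.42.0, other scalings, filters and left-out pairs. The methods were tested on simulated data. Members and lists were chosen with earlier results of these data known. Named were all members, every tested claudin and, in each other list, up to 3 passing genes with the largest change in each direction, and for each member the 3 most alike genes, predicted gene models left out. Of 66 junction genes listed beyond the members, 47 were in the table, and the others were not analysed here. No protein sequences were used here. Some tested genes are not reported here by name, though they count in the totals of their lists.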

Additional observations from a re-analysis of the deposited data

Results flagged for a closer look

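Of the 18 sets of values for the 9 genes in each fraction, 1 held a library far from the rest, where chance gives about 1 in 20. Cldn23 stood at 3.59 CPM (84 reads) in the IFE library of the pair coded 11-5-2, and the other 6 IFE libraries lay between 1.39 and 2.28 CPM. Without that pair (replicate 1) the log2 fold change of Cldn23 was -3.08 (edgeR adjusted p = 0.00292), against -2.98 with all pairs.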

How the results depend on the processing

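The 8 calls among the 9 genes held under every other scaling, filter and tool run (DESeq2 and limma-voom included) and with each pair left out, where 5 were lower and 3 higher each time. They changed when the pairs were divided by title code. With the 3 pairs coded 27-7 alone, 3 of the genes were lower and 2 higher, and 1226 genes of all were higher and 1105 lower. With the 4 other pairs alone, 5 were lower and 1 higher, and 1547 of all were higher and 1540 lower. These fits hold fewer samples. Without the replicate block, 4689 genes were called against 4786, and 8 of the 9 genes. Leaving out a pair gave 2037 to 2513 higher and 1916 to 2716 lower calls. Over all settings the log2 fold change of Cldn23 ran from -3.81 to -2.53, that of Cldn1 from -1.90 to -1.55 and that of Ocln from -2.17 to -1.86, and Tjp1 was called in none. Of the lower polarity genes, the call of Cdc42 was lost without replicate 1, 2, 4 or 7 and that of Pard6g without replicate 4 or 6. The share of Cldn4 among claudins depended on the length scaling. Without it, the share was 28.4% in placode-enriched and 24.95% in IFE libraries, and Cldn1 led in IFE libraries with 49.0%. The order of Cldn6 and Cldn1 in placode-enriched libraries depended on it too, with shares of 18.4% and 24.1% without length scaling. The calls of Cldn3 (edgeR adjusted p = 0.0111) and Cldn7 (0.0104) did not hold at an adjusted p under 0.01. Depth limits Cldn23, with 0 to 21 reads in placode-enriched libraries, and Cldn10, with 1 to 14 in those of IFE.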
